A study of Mus musculus with 24 samples.

Results

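H3K27ac was compared between wild-type mouse embryonic fibroblasts (MEF) and wild-type cancer-associated fibroblasts (MMTV-CAF) cultured from breast tumours of MMTV-PyMT mice. The material was 1 list of 1-bp peak summits for each cell type, with 44918 summits in MEF and 53873 in MMTV-CAF. Together these are 98791 of the 309261 summits in the 7 H3K27ac lists of the series. A summit was called shared if the other list had a summit within 500 bp, and type-only if it had none. By this rule 36.7% of the MEF summits were MEF-only (16507) and 47.9% of the MMTV-CAF summits were MMTV-CAF-only (25824). Described below are where the type-only summits lay, how strong they were, which genes and loci held them, and whether they also stood in lists that the rule did not use.

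The study examined the transcription factor Prrx1 in fibroblasts, and the series holds 24 ChIP-seq samples, of which 17 peak lists were used here. Both compared libraries were labelled wild type for Prrx1 and were made with the same H3K27ac antibody. MEF came from embryos of C57BL/6 mice harvested at E10 to E13, and MMTV-CAF from MMTV-PyMT tumours in FVB/NJ mice, in which the mouse mammary tumour virus promoter drives the polyoma middle T oncogene in mammary epithelium. The labels name SgNS, a non-targeting guide, as the wild-type control of the cells edited with a guide. All cells carried the papillomavirus genes E6 and E7 for immortalisation and grew in DMEM with 10% FBS, so neither list describes fibroblasts in an embryo or a tumour. Cell origin, mouse strain, age of the tissue and culture differed together, and their parts cannot be told apart. The reads of FVB/NJ cells were aligned to mm9, a C57BL/6 assembly, and the part of this was not tested. There was 1 library per group, so no difference between the types was tested and no p-value is given. The 95% Wilson intervals cover counting error over summits only.

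The other 5 H3K27ac lists served as a check. They came from MEF with a Prrx1 mutation (KI, read as the lacZ insertion the study describes), MEF and MMTV-CAF with Prrx1 deleted by a guide RNA (SG), and wound-healing skin fibroblasts, WT and SG. None is a replicate of either compared culture, since the edited cells also lack Prrx1 and the wound cells are of another origin. Sequencing depth is unknown, because the lists carry no read totals. A mark in fewer of the cells and a weaker mark in every cell cannot be told apart in such lists.

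H3K27ac is acetylation of lysine 27 on histone H3, found at active promoters and at active enhancers, which are regulatory sites that may lie far from the gene they act on. Promoter acetylation is largely common to many cell types, while enhancer acetylation is known to vary between cell types and between developmental stages. Fibroblasts keep a memory of their position in the body, carried among others by the Hox genes, and those of tumours are known for making collagen, proteases and growth factors.

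The sequence under a few summits shows what kind of place stood apart. Each is the forward strand of mm9 (NCBIM37), and in the first group every CpG, the base pair at which DNA is methylated, is in capitals. Rnd3 and Cxcl12 had strong MEF-only promoter summits, and the site beyond the end of Meis1 belongs to a MEF-only locus. Yap1 and Hoxc10 had strong MMTV-CAF-only promoter summits. The 2 sites at Tnrc18 are 670 bp apart and are shown because they are the strongest distal MEF-only summit and the third distal MMTV-CAF-only summit, each at a place where the other list also had a summit nearby.
Rnd3 promoter, MEF-only, chr2:51003960-51004160: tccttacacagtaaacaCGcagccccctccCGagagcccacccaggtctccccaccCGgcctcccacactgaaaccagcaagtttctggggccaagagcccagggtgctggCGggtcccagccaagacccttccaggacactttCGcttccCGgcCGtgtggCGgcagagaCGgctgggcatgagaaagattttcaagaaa
Cxcl12 promoter, MEF-only, chr6:117118822-117119022: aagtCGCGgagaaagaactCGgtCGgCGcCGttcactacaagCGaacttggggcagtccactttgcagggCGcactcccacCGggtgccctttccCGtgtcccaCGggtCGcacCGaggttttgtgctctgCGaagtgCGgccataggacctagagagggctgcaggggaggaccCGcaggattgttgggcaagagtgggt
beyond the end of Meis1, MEF-only, chr11:18771747-18771947: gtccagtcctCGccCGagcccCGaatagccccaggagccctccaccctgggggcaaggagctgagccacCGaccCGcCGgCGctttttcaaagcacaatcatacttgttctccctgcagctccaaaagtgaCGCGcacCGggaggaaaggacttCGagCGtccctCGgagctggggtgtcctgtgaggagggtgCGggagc
Yap1 promoter, MMTV-CAF-only, chr9:8004774-8004974: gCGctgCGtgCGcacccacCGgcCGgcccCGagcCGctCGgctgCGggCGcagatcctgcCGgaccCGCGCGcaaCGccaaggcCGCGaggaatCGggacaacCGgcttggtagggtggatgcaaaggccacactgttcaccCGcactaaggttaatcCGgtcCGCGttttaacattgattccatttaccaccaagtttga
Hoxc10 promoter and coding exon, MMTV-CAF-only, chr15:102797881-102798081: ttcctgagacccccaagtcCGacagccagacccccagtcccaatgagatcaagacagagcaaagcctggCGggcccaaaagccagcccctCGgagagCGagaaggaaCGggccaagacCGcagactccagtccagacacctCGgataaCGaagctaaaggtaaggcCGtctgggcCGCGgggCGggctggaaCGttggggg
near Tnrc18, intergenic, MEF-only, chr5:143582105-143582305: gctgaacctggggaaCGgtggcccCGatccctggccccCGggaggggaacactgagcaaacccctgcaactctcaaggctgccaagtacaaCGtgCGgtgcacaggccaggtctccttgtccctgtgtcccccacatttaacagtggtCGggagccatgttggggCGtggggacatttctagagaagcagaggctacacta
near Tnrc18, intergenic, MMTV-CAF-only, chr5:143582775-143582975: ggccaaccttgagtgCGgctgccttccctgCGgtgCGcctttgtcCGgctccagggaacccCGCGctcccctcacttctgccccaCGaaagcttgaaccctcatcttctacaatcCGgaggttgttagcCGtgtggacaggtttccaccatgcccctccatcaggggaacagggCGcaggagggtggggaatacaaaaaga

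The 5 promoter and gene-end windows held 9 CpG (Rnd3), 16 (Cxcl12), 14 (Meis1), 23 (Yap1) and 13 (Hoxc10) in each window, which is the summit with 100 bases on each side, and the windows at Tnrc18 held 7 and 10. A second group, in which the letters TGANTCA are in capitals, shows stretches beside distal type-only summits. These letters are bound by AP-1, the Fos and Jun family of enhancer-binding factors active in fibroblasts. They stood 207 to 254 bp from the summit. The examples were chosen for letters at about this distance, so they do not show how often it occurs.
near Tmtc2, intergenic, MEF-only, chr10:105059372-105059522: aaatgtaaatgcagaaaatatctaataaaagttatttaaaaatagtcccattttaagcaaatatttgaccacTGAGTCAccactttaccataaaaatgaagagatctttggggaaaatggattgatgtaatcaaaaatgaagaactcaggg
downstream of Cxcl12, intergenic, MEF-only, chr6:117454842-117454992: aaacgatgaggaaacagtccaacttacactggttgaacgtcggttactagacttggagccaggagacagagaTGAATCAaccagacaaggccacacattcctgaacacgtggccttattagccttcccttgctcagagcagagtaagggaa
within Col28a1, MMTV-CAF-only, chr6:8025138-8025288: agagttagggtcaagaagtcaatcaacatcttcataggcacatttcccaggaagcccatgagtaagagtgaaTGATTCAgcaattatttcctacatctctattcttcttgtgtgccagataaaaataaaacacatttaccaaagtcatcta
near Slc45a1, intergenic, MMTV-CAF-only, chr4:150126409-150126559: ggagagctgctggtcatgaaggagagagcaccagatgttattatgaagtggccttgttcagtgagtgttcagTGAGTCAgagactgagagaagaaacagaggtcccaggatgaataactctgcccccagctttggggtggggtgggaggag

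The labels were first checked against fibroblast genes. All 10 fibroblast markers listed had a summit in MEF, and 9 had one in MMTV-CAF, where Fap had none. Col1a1, which encodes the main chain of collagen I, held 5 summits in MEF and 8 in MMTV-CAF within the gene and 10 kb on each side. Acta2, the smooth muscle actin of myofibroblasts, held 4 in each, and Prrx1 itself held 17 and 26. The 19 epithelial markers, which matter because the CAF came from an epithelial tumour, carried 17 summits in MEF and 27 in MMTV-CAF. Of these, 10 had none in either list, Epcam, Krt5, Krt18, Grhl2 and Elf5 among them, and Krt8 held 0 in MEF and 5 in MMTV-CAF. An H3K4me3 region, the mark of active promoters, covered a transcription start site (TSS) of 2 epithelial markers in MEF and of 3 in MMTV-CAF. The endothelial markers carried 11 and 15 summits, leukocyte markers 13 and 22, pericyte markers 15 and 19, neural crest and Schwann markers 7 and 10, and muscle markers 2 and 4. Ptprc, Cd3e, Kdr, Erg, Sox10, Myod1 and Pax7 had none in either list. Some genes of these lists overlap or adjoin genes that fibroblasts use, and the part of other cells in the results was not tested.

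Type-only summits were the weaker ones in both lists. The strength of a summit is its −log10 p from MACS2, as deposited, and it is compared here only within a list. The median was 13.0 for MEF-only and 23.9 for shared MEF summits, and 11.7 and 27.4 in MMTV-CAF. When the MEF list was cut into 10 equal classes of strength, 58.8% of the weakest (57.3 to 60.2) and 14.6% of the strongest (13.6 to 15.6) were MEF-only. In MMTV-CAF these shares were 80.8% (79.7 to 81.8) and 8.04% (7.34 to 8.79). The share fell at each step from the weakest to the strongest class in both lists. At the edge of the rule there was no break: 977 MEF summits lay 450 to 500 bp from the nearest MMTV-CAF summit and 1005 lay 500 to 550 bp away, with median −log10 p of 17.6 in both. For MMTV-CAF these counts were 803 and 773, with medians of 17.0 and 17.3.

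Promoters were shared far more than distal sites. Of the MEF summits within 1 kb of a protein-coding TSS, 20.8% were MEF-only (20.2 to 21.5), against 44.4% of the distal ones (43.9 to 45.0). Of the MMTV-CAF summits, 19% at promoters (18.4 to 19.7) and 58.0% at distal sites (57.5 to 58.4) were MMTV-CAF-only. Distal summits are also weaker, and within the strongest class the gap was 11.4% at promoters against 21.9% at distal sites in MEF, and 4.79% against 19.7% in MMTV-CAF. Within the weakest class of MMTV-CAF the intervals of the promoter and distal shares overlapped, at 79.1% and 80.8%.

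**Figure D1:**
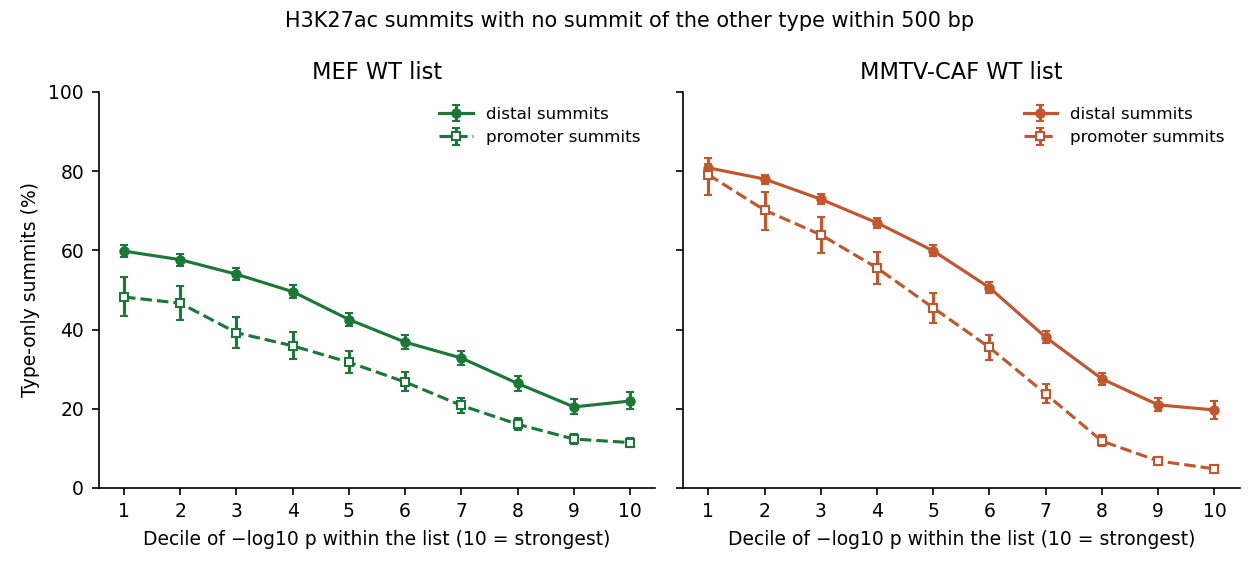
Share of type-only summits (%) against the decile of −log10 p within each list (10 is the strongest), for distal summits (filled circles, solid) and promoter summits within 1 kb of a TSS (open squares, dashed), with MEF WT on the left and MMTV-CAF WT on the right and bars for Wilson 95% intervals. In the strongest decile 21.9% of distal and 11.4% of promoter summits of MEF are type-only, and 19.7% and 4.79% of those of MMTV-CAF.

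By position, 18.4% of MEF-only summits lay at promoters, 38.5% in introns and 40.4% between genes, with a median distance of 19.7 kb to the nearest TSS. MMTV-CAF-only summits lay less at promoters (10.2%) and more in introns (49.2%), with 36.0% between genes and a median distance of 15.6 kb. Shared summits were at promoters in 40.7% of cases in MEF and 40.04% in MMTV-CAF. Of the MEF-only summits 31.7% lay over 50 kb from any TSS, against 24.5% of the MMTV-CAF-only and 18.7% of the shared MEF summits. On chromosome X the MEF-only share was the higher one: 40.3% of its 1197 MEF summits were MEF-only, and 33.4% of its 1078 MMTV-CAF summits were MMTV-CAF-only. On the 19 autosomes the MMTV-CAF list was larger, by ratios between 1.09 and 1.39.

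Many type-only summits had a summit of the other list not far off. The median distance to it was 1684 bp for MEF-only and 2906 bp for MMTV-CAF-only summits. Within 1 kb lay 37.2% and 22.6% of them, and over 5 kb away lay 6140 MEF-only (13.7% of the list) and 10272 MMTV-CAF-only summits (19.1%). The strongest ones were mostly of the near kind. Of the 100 strongest MEF-only summits at promoters 97 had an MMTV-CAF summit within 5 kb, as did 92 of the 100 strongest at distal sites. For MMTV-CAF-only summits these counts were 96 and 88. Most of the strong type-only summits thus stood beside a summit of the other list.

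Rnd3, Sema3a, Clcf1 and Setd5 were among the 5 strongest MEF-only promoter summits. Rnd3, a small GTPase that loosens stress fibres, had a MEF summit of −log10 p 119 and an MMTV-CAF summit of 112 at 1135 bp. At Sema3a, a secreted guidance cue, the MEF summit reached 118 and the MMTV-CAF summit 563 bp away only 25.3. The strongest distal MEF-only summits were near Tnrc18, 1700001O22Rik, Snx9, Ypel4 and Anxa3. At Tnrc18 the MEF summit of 115 and the MMTV-CAF summit of 142 stood 670 bp apart. The MMTV-CAF SG list also had a summit within 500 bp at Clcf1, Setd5, Tnrc18, 1700001O22Rik, Snx9 and Ypel4, and none at Rnd3, Sema3a and Anxa3. In MMTV-CAF the strongest type-only promoter summits included Yap1, Atf1, Hoxc10 and Tgif1, and the strongest distal ones were near BC032203, Cebpb, Tnrc18, Ncrna00085 and Tes. The MEF KI list also had a summit within 500 bp at Yap1, Atf1, Tgif1, BC032203, Cebpb and Tes, and MEF SG at Tnrc18. At Hoxc10 and Ncrna00085 neither edited MEF list had one. Yap1 had a MEF WT summit of 64.6 at 734 bp. Hoxc10 had no MEF summit within 5 kb: its summit of 130 lay 9.71 kb from the nearest one.

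Among summits over 5 kb from the other list, which were picked after their values were seen, MEF had strong promoters at Eya1 (82.7), Slc38a1 (80.6), Igf2bp3 (77.1), Foxf1a (73.7), Cxcl12 (70.1) and Ptprk (63.7). Eya1 works with homeodomain partners in embryonic organ formation, Slc38a1 takes up glutamine, Igf2bp3 is a fetal RNA-binding protein, Foxf1a is a factor of visceral mesenchyme, Cxcl12 is a chemokine that fibroblasts secrete, and Ptprk is a receptor tyrosine phosphatase. At the 4 promoters of Eya1, Slc38a1, Cxcl12 and Ptprk the KI and SG MEF lists also had a summit within 500 bp. The MMTV-CAF SG list had none at Eya1, Slc38a1 and Ptprk, and one at Igf2bp3, Foxf1a and Cxcl12. In MMTV-CAF the strongest such promoters were Hoxc10 (130) and Lrp1 (108), besides AK129341 (113), which lies in a stretch of chromosome 9 described below. At Lrp1 both edited MEF lists and MMTV-CAF SG also had a summit, while at Hoxc10 and AK129341 MMTV-CAF SG had one and the edited MEF lists none. At 98.7, a summit 164 kb from the TSS of Vegfa, the vascular growth factor, was among the strongest distal ones, and both SG lists, of MEF and of MMTV-CAF, had it too.

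Most promoters carried the mark in both types or in neither. Of 22219 protein-coding genes, 10224 (46.0%) had a summit within 1 kb of a TSS in both lists and 10839 (48.8%) in neither, while 565 (2.54%) had one in MEF alone and 591 (2.66%) in MMTV-CAF alone. The MEF-alone promoters were found in the MEF SG list in 82.7% of cases (79.3 to 85.6), in the MMTV-CAF SG list in 47.6% (43.5 to 51.7) and in the MEF KI list in 33.3% (29.5 to 37.3). The MMTV-CAF-alone promoters were found in the MMTV-CAF SG list in 78.5% (75.02 to 81.6), in the MEF SG list in 45.2% (41.2 to 49.2) and in the MEF KI list in 11.3% (9.03 to 14.1). The KI list is the shortest of the 7, with 29325 summits. Acetylation chose these promoters, so it differs between the types by construction. H3K4me3 covered 84.2% of the MEF-alone promoters in MEF WT and 55.6% of them in the CAF. Of the MMTV-CAF-alone promoters it covered 80.2% in the CAF and 59.2% in MEF.

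Acetylation of one type was also seen in its edited cells, and in none of those of the other, at 253 MEF-alone and 207 MMTV-CAF-alone promoters. These counts are not directly comparable, because MEF has a KI and an SG list and MMTV-CAF an SG list alone. By strength the first MEF genes here were Rnd3, Adnp, Mus81, Eya1 and Slc38a1, and S100a4, Nr2f2 and Ptprk stood among the 15 strongest (picked after their values were seen). Of these 15, 11 had an H3K4me3 region over the TSS in MMTV-CAF WT, and 3, Eya1 and Ptprk among them, had none in either MMTV-CAF list. Over the TSS of Rnd3 both MMTV-CAF lists had one and the 3 MEF lists none. Over its MEF promoter summit, 570 bp from a TSS, all of these lists had one. Among the MMTV-CAF genes were Prdm6, a repressor of vascular smooth muscle, Sema4c, Hoxc13, Slc16a3, which exports lactate, and Eng, a co-receptor for TGF-β. The promoter summit of Hoxc13 had a −log10 p of 69.7 and that of Eng 57.5. Of the 15 strongest MMTV-CAF genes, 8 had an H3K4me3 region over the TSS in MEF WT, and 7 had none in any MEF list.

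The type-only classes were next followed into the other lists. Of the MEF-only summits 48.3% had a summit within 500 bp in MEF SG and 31.2% in MMTV-CAF SG. Of the MMTV-CAF-only summits 47.2% had one in MMTV-CAF SG and 19.5% in MEF SG. Shared summits were found in both lists in 79.0% to 79.8% of cases, so each type-only class was found less often than the shared summits in the edited cells of its own type, and still less often in those of the other type. The MEF KI list held 27.01% of the MEF-only and 11.6% of the MMTV-CAF-only summits. The wound lists held 29.0% (WT) and 34.7% (SG) of the MEF-only summits, and 16.2% and 24.1% of the MMTV-CAF-only summits. In no other H3K27ac list were 24.8% of the MEF-only, 35.1% of the MMTV-CAF-only summits, against 3.64% of the shared summits of MEF and 3.73% of those of MMTV-CAF.

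**Figure D2:**
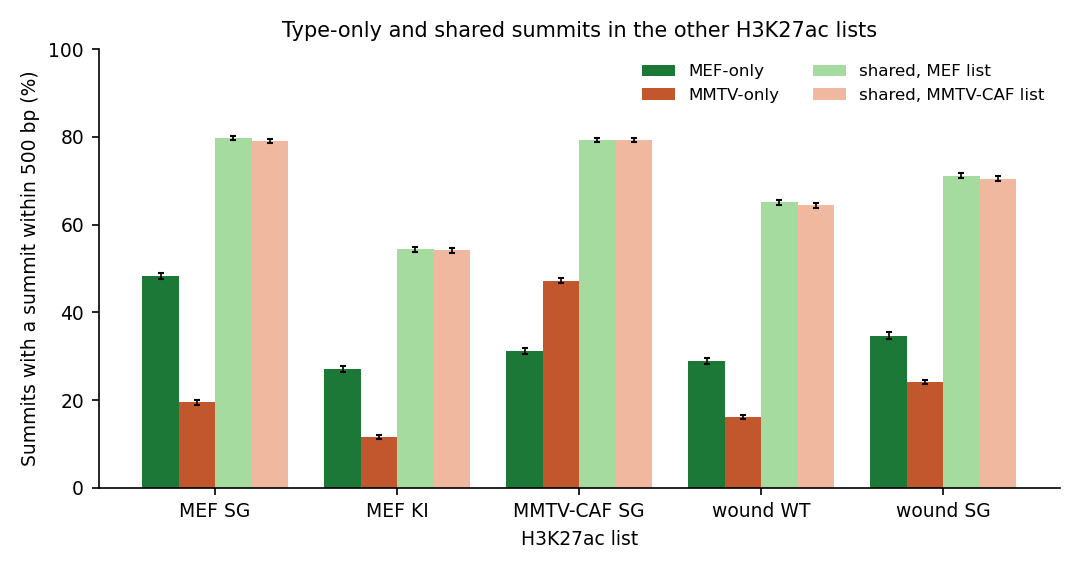
Share of summits (%) with a summit within 500 bp in each of the 5 H3K27ac lists that the rule did not use, for MEF-only, MMTV-CAF-only and shared summits, with bars for Wilson 95% intervals. MEF-only summits reach 48.3% in MEF SG against 31.2% in MMTV-CAF SG, and MMTV-CAF-only summits 47.2% in MMTV-CAF SG against 19.5% in MEF SG.

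Summits present in an edited list of their own type and in none of the other type will be called held. MEF has a KI and an SG list and MMTV-CAF an SG list alone. A MEF-only summit could thus be found in either KI or SG, while an MMTV-CAF-only summit had to be absent from both. Held shares of the types are therefore not directly comparable, and the part of this rule in them was not tested. They were 5908 of the MEF-only (35.8%) and 7840 of the MMTV-CAF-only summits (30.4%). Their medians of 15.6 and 12.3 exceeded those of the type-only classes as a whole. In the MMTV-CAF list the held share did not rise with strength: it was 26.2% in the weakest class and 19.2% in the strongest, against 25.5% and 49.9% in MEF.

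The other marks were counted at the same summits. An H3K4me3 region of MEF WT lay over 90.4% of the MEF-only promoter summits, and one of the CAF over 86.0%. Over the MMTV-CAF-only promoter summits these shares were 67.2% and 86.9%. At distal MMTV-CAF-only summits the region was present in 31.6% in MMTV-CAF and 8.62% in MEF, and at distal MEF-only summits in 13.0% in MEF and 23.0% in MMTV-CAF. The MMTV-CAF WT list of H3K4me3 holds 27339 regions and the MEF WT list 16089, and the part of this in the values was not tested. A Prrx1 summit of the same cells lay within 500 bp of 1.82% of the MEF-only and 1.47% of the shared MEF summits, and of 5.27% of the MMTV-CAF-only and 9.28% of the shared MMTV-CAF summits. The Prrx1 lists held 3048 summits in MEF and 8000 in MMTV-CAF.

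Some loci belonged to one type as a whole. When the summits of both lists were joined across gaps no wider than the default stitching distance of the super-enhancer program ROSE, 20931 loci resulted (the widest gap within a locus was 12496 bp), of which 14020 (67.0%) held a shared summit, 2777 (13.3%) held MEF summits alone and 3507 (16.8%) held MMTV-CAF summits alone. In 627 loci both lists had summits, none within 500 bp of each other. The loci of one type were small: 60.3% of those of MEF and 66.2% of those of MMTV-CAF were a single summit. They held 28.1% and 21.2% of the type-only summits, so that most type-only summits stood in loci that also had a shared one. A promoter was part of 347 of the MEF loci and 333 of the MMTV-CAF loci, against 59.1% of the loci with a shared summit.

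The MEF locus with the largest summed −log10 p was chr6:117444418-117473994, with 14 summits between genes, 313 kb beyond Cxcl12. The MEF SG list had 10 summits in it and the KI list 5, while MMTV-CAF SG had 0 and the wound lists 2 (WT) and 0 (SG). A further MEF locus of 9 summits began at position 117546949, 416 kb from Cxcl12, and held 3 MMTV-CAF SG summits. Cxcl12 itself (chr6:117118553-117131385) held 5 MEF and 0 MMTV-CAF summits. An H3K4me3 region of 5603 bp covered its TSS in MEF WT. In MMTV-CAF WT none covered the TSS, but one lay over the MEF promoter summit, 327 bp from the TSS. The gene held 4 summits in each edited MEF list, 1 in MMTV-CAF SG and 2 and 1 in the wound lists. Whether the loci act on Cxcl12 was not tested.

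The second MEF locus, chr11:18765634-18806359, had 10 summits and overlapped the end of Meis1, a homeodomain partner of Hox proteins. The MEF SG list had 8 summits there, wound WT 4, and KI, MMTV-CAF SG and wound SG 0. The third, chr10:27686981-27708580, lay 89.3 kb from the TSS of Ptprk with 8 summits, and was present in every list but those of MMTV-CAF, with 7 summits in KI, 9 in MEF SG, 7 and 5 in the wound lists and 0 in MMTV-CAF SG. The fourth, 314 kb from Irx1, had 10 MEF summits and also 6 in MMTV-CAF SG and 9 and 13 in the wound lists, so the SG library of MMTV-CAF carried it although the WT library did not. The sixth held the promoter of Nid2, a basement membrane protein, with 8 summits in MEF WT, 7 in MEF SG and 0 in MMTV-CAF SG.

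The first MMTV-CAF locus was chrX:47933825-47973688, with 18 summits 176 kb from the nearest protein-coding TSS, Olfr1324. MMTV-CAF SG had 10 summits in it and the other 5 lists none, and 12 H3K4me3 regions of MMTV-CAF WT lay in it against 0 of MEF. The third was at Prdm6 on chromosome 18, with 11 summits, 2 of MMTV-CAF SG and 8 H3K4me3 regions. The fourth covered the promoter of Meox2, a mesenchymal homeobox factor of somites and limbs, with 12 summits in MMTV-CAF WT, 5 in MMTV-CAF SG and 0 in the other 5 lists. The fifth, at Acvrl1, a receptor for BMP9 best known in endothelium, had 10 summits and 6 in MMTV-CAF SG. The second lies in the stretch of chromosome 9 described next.

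One stretch of chromosome 9 stood apart in each list of the MMTV-CAF WT cells. From 6300001 to 8500000, which is 2.2 Mb around Yap1, the MMTV-CAF WT list held 210 H3K27ac summits against 37 in MEF WT, 40 in KI, 20 in MEF SG, 21 and 42 in the wound lists and 25 in MMTV-CAF SG. The limits were set after the data were seen, by joining bins of 100 kb outward from Yap1. A bin was joined where the H3K27ac, Prrx1 or H3K4me3 list of MMTV-CAF WT exceeded the lists of other libraries. Of the 210, 193 (91.9%, 87.4 to 94.9) were MMTV-CAF-only, and 2.07% of these had a summit in MMTV-CAF SG within 500 bp. The stretch held 10 of the 100 strongest summits of the list, and the highest of all, 274, was at the promoter of Yap1, a co-activator of the Hippo pathway at chr9:7931999-8004596. Prrx1 summits numbered 187 there in MMTV-CAF (2.34% of the list) against 1 in MEF and 5 in wound-healing cells, and H3K4me3 regions 70 against 10 to 14 in the other lists. All 3 kinds of library of these cells were high over the stretch, where the rule asked for an excess in any of them. High counts inside it and their drop at its ends therefore follow in part from the rule. Inputs were not used here, and the part of the amount of DNA in the stretch was not tested. Without the stretch 47.8% of the MMTV-CAF summits were MMTV-CAF-only, so the share over the genome moved little, but 15 of the genes that leaned to MMTV-CAF (by the rule given next) lie wholly or partly in it, Yap1, Pdgfd, Mmp13, and Birc2 and Birc3, inhibitors of cell death, among them.

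**Figure D3:**
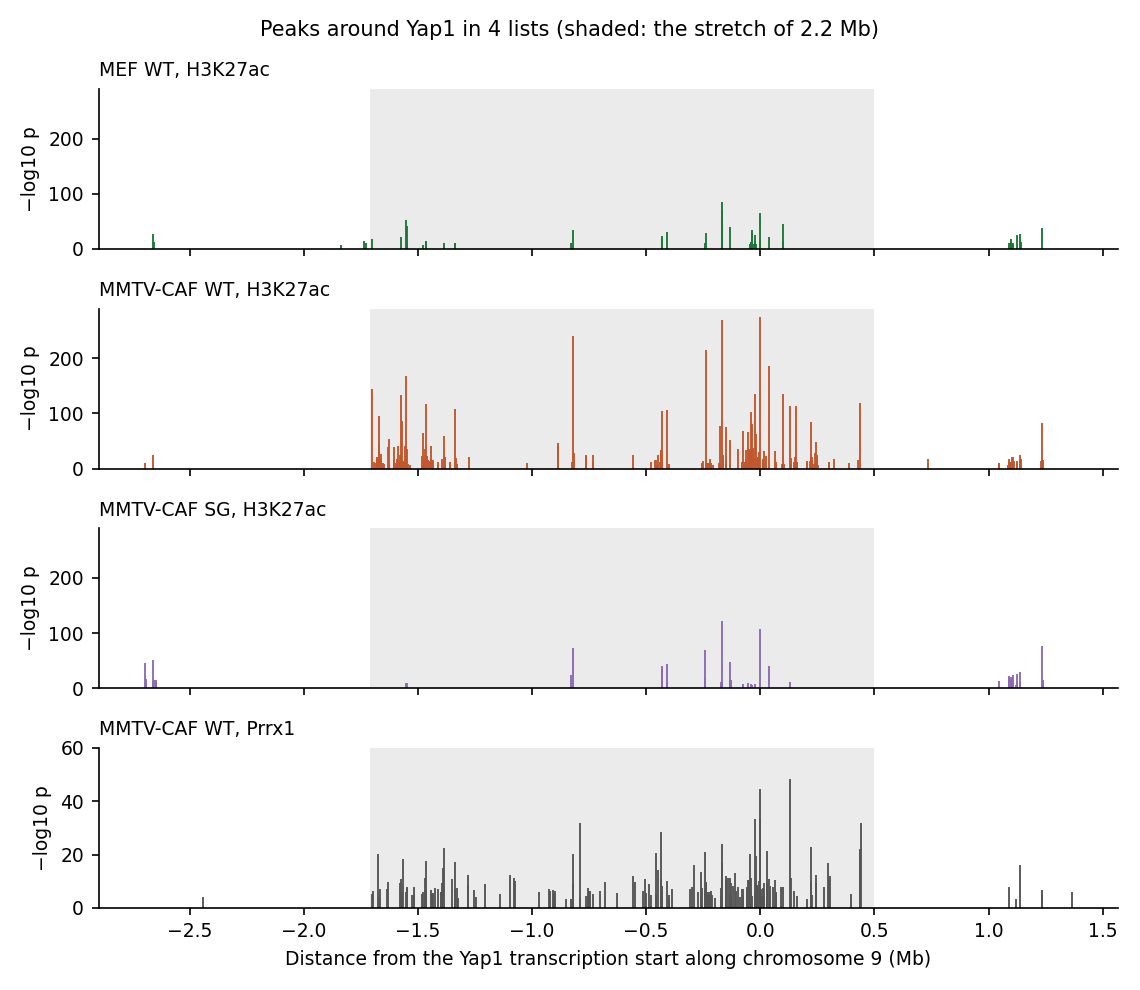
−log10 p of each summit (vertical lines) by distance from the Yap1 transcription start along chromosome 9 (Mb), for H3K27ac in MEF WT, MMTV-CAF WT and MMTV-CAF SG and for Prrx1 in MMTV-CAF WT, with the stretch of 2.2 Mb shaded. The shaded part holds 37, 210 and 25 H3K27ac summits and 187 Prrx1 summits.

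Genes were then described by their type-only summits, counted over the gene with 10 kb on each side. A gene was said to lean to a type if it had at least 3 type-only summits of that type and at least 3 times as many as of the other. Of 14415 genes with a summit in either list, 637 leaned to MEF (4.42%) and 2069 to MMTV-CAF (14.4%). With the lists cut to equal size the counts were 876 (6.13%) and 1212 (8.48%). Because a gene with more summits can lean more easily, the same shares were taken over genes with at least 5 summits, 6.68% and 24.4%, and with at least 10, 7.95% and 38.7%. The counts of each list below stand beside 4.42% (MEF) and 14.4% (MMTV-CAF) where they are over all its genes with a summit, and beside 6.68% and 24.4% where they are over those with at least 5. Genes leaning to MEF were long, with a median of 58.0 kb against 31.9 kb for MMTV-CAF and 21.5 kb for all. Of the 637, 412 had an H3K4me3 region over a TSS in both types, 81 in MEF alone and 9 in MMTV-CAF alone. Of the 2069, 1618 had one in both, 116 in MMTV-CAF alone and 16 in MEF alone. With held summits only, 178 of the 637 (27.9%) and 459 of the 2069 (22.2%) still leaned. Of the 637, 350 (54.9%) had more summits in MEF SG than in MMTV-CAF SG and 206 (32.3%) fewer, against 18.4% and 51.2% of all genes. Of the 2069, 1524 (73.7%) had more in MMTV-CAF SG and 277 (13.4%) fewer. A lean therefore describes the WT lists alone. Neighbouring genes share summits and are not independent.

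**Figure D4:**
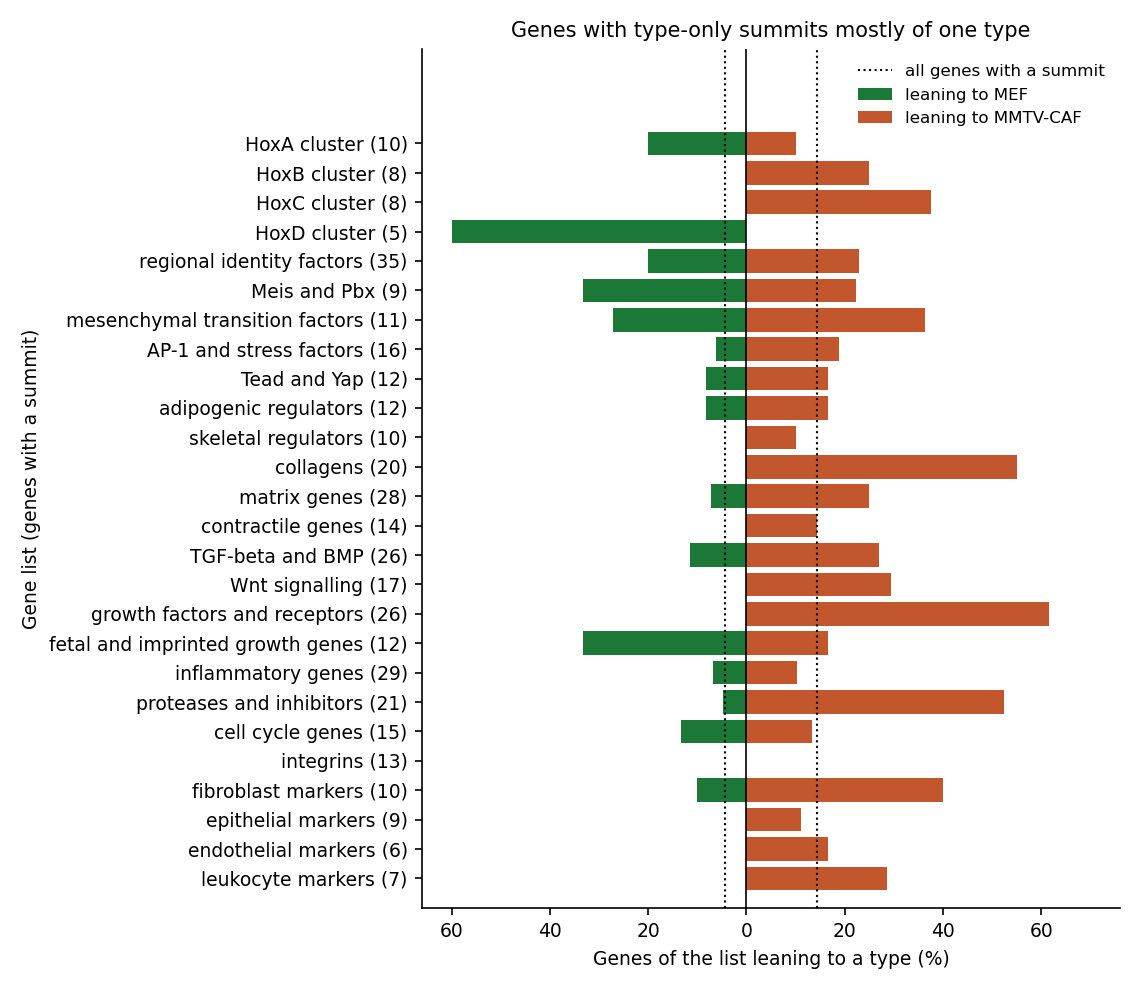
Share of the genes of each list (%) leaning to MEF (bars to the left) or MMTV-CAF (bars to the right), for lists with at least 5 genes that have a summit (number in brackets), with dotted lines at the shares over all genes, 4.42% and 14.4%. Growth factors and receptors (16 of 26), collagens (11 of 20) and proteases and inhibitors (11 of 21) reach farthest to the right, and the HoxD cluster (3 of 5) farthest to the left.

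The 6 genes with the largest excess of MEF-only summits were Sema3a, Sorbs2, Dlc1, Slc24a3, Lmo7 and Wwox, all long genes. Sema3a (chr5:13125593-13602565, mm9) held 42 MEF and 10 MMTV-CAF summits, with 33 in MEF SG, 13 in KI, 9 in MMTV-CAF SG and 11 and 41 in the wound lists. Slc24a3, a potassium-dependent sodium and calcium exchanger, held 23 and 0, with 15 in MEF SG, 8 in KI and 1 in MMTV-CAF SG. Slc24a3 was thus higher in each MEF list than in any other, while Sema3a was high in MEF WT, MEF SG and wound SG and in KI stood near the MMTV-CAF lists. Sorbs2, an adaptor of stress fibres, held 30 in MEF WT against 1 in MMTV-CAF WT, but 9 in KI and 2 in MEF SG, so it was high in one MEF library alone. Dlc1, which switches off small GTPases, held 39 and 14 summits, with 30 in MEF SG, 20 in KI, 13 in MMTV-CAF SG and 11 and 29 in the wound lists. Lmo7 held 28 and 6, but 11 in MEF SG, 6 in KI and 14 in MMTV-CAF SG. Wwox held 27 and 8, with 19 in MEF SG, 10 in KI and 17 in MMTV-CAF SG.

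Tgfbr3, Pde4d, AF064781, Fgfr2 and Fbn1 were among the 6 with the largest excess of MMTV-CAF-only summits. Tgfbr3, betaglycan, which presents TGF-β to its receptors, lies at chr5:107535589-107718648 and held 17 summits in MEF and 76 in MMTV-CAF, of which 68 were MMTV-CAF-only. The MMTV-CAF SG list had 86 there, the edited MEF lists 18 and 17, and the wound lists 15 and 28, so that both MMTV-CAF lists stood above all others. Its Prrx1 summits numbered 1 in MEF and 14 in MMTV-CAF. Fbn1, the fibrillin of elastic fibres (chr2:125126330-125333729), held 21 and 61, with 52 in MMTV-CAF SG and 10 to 25 in the other lists. Pde4d, which degrades cyclic AMP, held 13 and 59, with 16 in MEF SG, 37 in KI, 40 in MMTV-CAF SG and 6 and 20 in the wound lists, so KI stood near MMTV-CAF SG. AF064781 held 33 and 77, with 78 in MMTV-CAF SG and 18 to 45 in the others. Fgfr2 held 65 and 106, but its annotated span of 3009 kb takes in other genes.

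Collagen genes leaned to MMTV-CAF more than genes in general. Of the 20 collagens 11 leaned to MMTV-CAF (55.0%) and 0 to MEF, and of the 16 with at least 10 summits, 11, against 38.7% of all genes of that kind. The 3 MEF lists held 106 (WT), 129 (SG) and 80 (KI) summits at these genes, the MMTV-CAF lists 227 (WT) and 199 (SG), and the wound lists 140 and 110. Col1a2, the second chain of collagen I (chr6:4454814-4491543), held 6 in MEF and 24 in MMTV-CAF, with 3 in MEF SG, 7 in KI, 17 in MMTV-CAF SG and 23 and 4 in the wound lists. The wound WT library thus stood beside the MMTV-CAF lists for this gene. Its H3K4me3 region over the TSS was 3648 bp wide in MEF and 21610 bp in MMTV-CAF. Col3a1, collagen III (chr1:45368383-45406551), held 5 and 19 summits, with 6 in each edited MEF list, 13 in MMTV-CAF SG and 5 and 6 in the wound lists. Col5a1, which sets the width of collagen fibrils (chr2:27741945-27895034), held 6 and 29, with 8 in MEF SG, 4 in KI, 12 in MMTV-CAF SG and 20 and 15 in the wound lists. MMTV-CAF WT thus stood alone there, and the window chr2:27000001-28000000 around the gene held 102 summits in MMTV-CAF WT and at most 76 in any other list. Col4a1 and Col4a2, basement membrane chains transcribed from a common promoter region, held 9 and 25 and 16 and 31, and MEF SG had 18 and 26 there, the same counts as MMTV-CAF SG. Col1a1 did not lean, with 2 MEF-only and 5 MMTV-CAF-only summits.

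Other matrix genes leaned in 7 of 28 cases to MMTV-CAF and in 2 to MEF, or 25% and 7.14% against 14.4% and 4.42% of all genes. Of the 21 with at least 5 summits 7 and 1 leaned, or 33.3% and 4.76% against 24.4% and 6.68%. Besides Fbn1 the first included Fbln1 (4 and 12 summits), Loxl2, a collagen cross-linker (13 and 21), and Mfap5 (0 and 6). The MEF-leaning ones were Tnc, the tenascin of embryonic and healing tissue, with 6 and 2, and Loxl4 with 3 and 1 (1 in MEF SG and 2 in MMTV-CAF SG). At Tnc the edited MEF lists held 0 (SG) and 2 (KI), and MMTV-CAF SG 0.

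Growth factors and their receptors also leaned to MMTV-CAF. Of 26 genes 16 leaned to MMTV-CAF (61.5%) and 0 to MEF. Of the 19 with at least 10 summits 12 leaned to MMTV-CAF, against 38.7% of all genes of that kind. Leaving out Pdgfd, which lies partly in the stretch of chromosome 9 and had 0 summits in MMTV-CAF SG, 15 were left. The 3 MEF lists held 237 (WT), 229 (SG) and 170 (KI) summits at these genes, the MMTV-CAF lists 413 (WT) and 447 (SG), and the wound lists 194 and 217. These sums include Fgfr2, whose span takes in other genes, with 65, 81 and 48 in the MEF lists and 106 and 135 in the MMTV-CAF lists. Pdgfra, the PDGF receptor that marks fibroblasts (chr5:75548316-75594229), held 2 in MEF and 11 in MMTV-CAF, with 3 and 1 in MEF SG and KI, 13 in MMTV-CAF SG and 4 in each wound list. Here both MMTV-CAF lists lay above all 5 others. Met, the receptor of hepatocyte growth factor, held 20 and 45, with 24 in MMTV-CAF SG, 12 and 5 in MEF SG and KI and 10 and 18 in the wound lists. Its ligand Hgf held 0 and 3, with 21 in MMTV-CAF SG and 0 to 3 in the others. Fgf2 held 7 and 23, with 17 in MMTV-CAF SG and 3 to 9 in the others. Vegfa held 3 and 9, with 10 in MMTV-CAF SG and 2 to 3 in the others. Fgf1, by contrast, held 9 summits in MMTV-CAF WT and 1 in MMTV-CAF SG.

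Proteases and their inhibitors leaned to MMTV-CAF in 11 of 21 genes (52.4%) and to MEF in 1, Serpine2, where MEF SG held 2 summits and MMTV-CAF SG 5. With at least 10 summits 8 of 10 leaned to MMTV-CAF, against 38.7% of all genes of that kind. Mmp13 lies in the stretch of chromosome 9, and 10 remained without it. Adamts2, which trims procollagen, held 9 and 24 summits, with 18 in MMTV-CAF SG and 7 to 13 in the others. Timp2, an inhibitor of metalloproteases, held 10 and 19, with 22 in MMTV-CAF SG and 10 to 15 in the others. For the collagens, growth factors and proteases the lean counts fell when the lists were cut to equal size, to 8, 12 and 7, beside the 8.48% of all genes at equal size. With held summits they were 5, 7 and 5, beside 3.92% of all genes.

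TGF-β and BMP genes leaned to MMTV-CAF in 7 of 26 cases and to MEF in 3, and Wnt genes in 5 and 0 of 17. The shares leaning to MMTV-CAF were 26.9% and 29.4%, against 14.4% of all genes. With at least 5 summits they were 7 of 22 (31.8%) and 4 of 8 (50%), against 24.4%. With lists of equal size 4 and 2 genes leaned to MMTV-CAF, and with held summits 4 and 0, so the lean of the Wnt genes was lost there. Bmpr1b, a BMP receptor of cartilage, held 12 summits in MEF and 0 in MMTV-CAF, with 8 in MEF SG, 1 in KI, 0 in MMTV-CAF SG and 2 and 3 in the wound lists. Nog, a BMP antagonist, held 4 and 1, and Tgfbr2, the TGF-β receptor, 5 and 3. On the other side were Bmp6 (7 and 13), Bmpr1a (4 and 9) and the BMP antagonist Grem1 (2 and 7). Bmp6 held 8 summits in MEF SG and 7 in MMTV-CAF SG, so the SG lists did not keep its order. The integrins had no leaning gene among 13. The contractile genes leaned to MMTV-CAF in 2 of 14 cases, Tpm1 and Cnn1, a share of 14.3% against 14.4% of all genes, and with at least 5 summits in 2 of 11 (18.2%) against 24.4%. The SG lists held 5 summits each at Cnn1.

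The Hox clusters differed from each other. In HoxC 3 of 8 genes leaned to MMTV-CAF (Hoxc5, with 2 summits in each SG list, Hoxc10 and Hoxc11) and 0 to MEF, and the cluster held 8 summits in MEF WT against 22 in MMTV-CAF WT. The other lists had 11 in MEF SG, 1 in KI, 27 in MMTV-CAF SG and 26 and 12 in the wound lists, so wound WT was as high as MMTV-CAF. Hoxc10, a gene of the lumbar and hindlimb region at chr15:102797227-102802324, held 2 and 9, with 2 in MEF SG, 0 in KI, 9 in MMTV-CAF SG and 8 and 2 in the wound lists. Its H3K4me3 region was 524 bp wide in MEF and 28257 bp in MMTV-CAF. In HoxD 3 of 5 genes leaned to MEF (Hoxd3, Hoxd4 and Hoxd8) and 0 to MMTV-CAF. This rests on few summits, which the 3 genes share in part: the cluster held 9 and 4 in the WT lists, 6 in MEF SG and 5 in MMTV-CAF SG, and none of the 3 leaned once summits below a −log10 p of 10 were left out, while all 3 still leaned with held summits. The strongest MEF-only summit there had a −log10 p of 41.3. The KI list, with 19, was the highest there and had 0 at these 3 genes. In HoxA Hoxa4 and Hoxa5 leaned to MEF, and in HoxB Hoxb7 and Hoxb8 leaned to MMTV-CAF. Hoxb7 (3 and 9) and Hoxb8 (2 and 7) held 7 summits each in MEF SG and 9 and 8 in MMTV-CAF SG, so the SG lists differed by little. An H3K4me3 region over the TSS of Hoxa5 was 5610 bp wide in MEF and absent in MMTV-CAF. At Hoxb8 it was 5641 bp wide in MEF and likewise absent in MMTV-CAF, against the direction of its acetylation.

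Among the cofactors of Hox proteins, 3 of 9 Meis and Pbx genes leaned to MEF (Meis1, Meis2 and Pbx3) and 2 to MMTV-CAF (Pknox2 and Pbx2), or 33.3% and 22.2% against 4.42% and 14.4% of all genes. Of the 8 with at least 5 summits 3 and 2 leaned, or 37.5% and 25% against 6.68% and 24.4%. Meis1 (chr11:18780433-18918961) held 24 and 5 summits, with 20 in MEF SG, 4 in KI, 4 in MMTV-CAF SG and 10 and 6 in the wound lists. Its H3K4me3 region was 14328 bp wide in MEF and 5152 bp in MMTV-CAF. Meis2 held 14 and 6, but 17 and 12 in the wound lists, which reached the level of MEF.

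Regional identity factors, which mark body region and embryonic origin, leaned both ways, with 7 of 35 to MEF and 8 to MMTV-CAF, beside backgrounds of 4.42% and 14.4%. The MEF side had Wt1, a factor of kidney and mesothelium (4 and 0), Pitx1, a factor of the hindlimb (3 and 0), Lhx9 (4 and 1) and Foxf1a (3 and 0). At Pitx1 MEF SG held 5 summits, KI and MMTV-CAF SG 0 and each wound list 4, while at Wt1 MMTV-CAF SG held 4 and MEF SG 1. The SG lists did not keep the order at Lhx9 (4 in each) and Foxf1a (1 in MEF SG and 2 in MMTV-CAF SG) either. The MMTV-CAF side had Meox2 (0 and 12), Osr1 (4 and 9), Tbx15 (3 and 8), Tbx18 (1 and 6), Foxc2, Gata2, Emx2 and Foxf2. Of these Gata2 held 6 in MEF SG and 5 in MMTV-CAF SG, and Emx2 4 and 2. An H3K4me3 region over the TSS of Wt1 was present in MEF WT and absent in MMTV-CAF WT, and at Meox2 the reverse held.

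Factors of mesenchymal transition were split. Twist1 (7 and 2), Prrx2 (14 and 8) and Tcf12 (13 and 7) leaned to MEF, and Zeb2 (8 and 26), Zeb1 (6 and 11), Snai1 (3 and 9) and Tcf3 (4 and 7) to MMTV-CAF, of 11 in all. These shares were 27.3% and 36.4%, against 4.42% and 14.4% of all genes. Of the 10 with at least 5 summits 30% and 40% leaned, against 6.68% and 24.4%. Of the 9 with at least 10 summits 2 and 4 leaned, beside 7.95% and 38.7% of all genes of that kind. Tcf12 held 1 summit in MEF SG, 4 in KI and 10 in MMTV-CAF SG, so the edited lists had the opposite order. Twist1 held 6 in each SG list. Prrx2, the close relative of Prrx1, also held 19 summits in MMTV-CAF SG, above MEF WT. Zeb2 held 19 in MMTV-CAF SG and 4 to 8 in the other 4 lists. Prrx1 leaned to neither type, with 8 MEF-only and 18 MMTV-CAF-only summits.

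Genes of fetal growth, many of them imprinted, leaned to MEF in 4 of 12 cases (33.3%, against 4.42% of all genes) and in 3 of the 6 with at least 5 summits (against 6.68%). They were Igf2bp3 (10 and 2), Gpc3 (8 and 2), Grb10 (6 and 1) and Peg3 (3 and 0). Igf2bp3 held 7 summits in MEF SG and in MMTV-CAF SG, 8 and 7 in the wound lists and 3 in KI, so the low count of MMTV-CAF WT was not shared by its edited cells. Gpc3 held 2 in MEF SG, 1 in KI and 7 in MMTV-CAF SG, the opposite order of the WT lists. Grb10 (4 in MEF SG and 2 in KI) and Peg3 (1 and 2) held 0 in MMTV-CAF SG and so kept their order. An H3K4me3 region over the TSS was present in MEF WT and absent in MMTV-CAF WT at Igf2bp3, Grb10 and Peg3. Igf2bp2 (11 and 24) and Hmga2 (16 and 26) leaned to MMTV-CAF, 16.7% of the 12 against 14.4% of all genes. Of the adipogenic regulators Ebf3 held 6 and 0, with 6 and 7 in the edited MEF lists and 0 in MMTV-CAF SG, while Ebf1 held 10 and 30, with 24 in MMTV-CAF SG, and Ebf2 0 and 3. Ebf2 had 5 summits in MEF SG and 2 in MMTV-CAF SG, so its WT order was not held by the edited lists. Of the 10 skeletal regulators, Runx2 leaned to MMTV-CAF with 33 and 51.

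Among other lists, inflammatory genes leaned in 2 of 29 cases to MEF (Cxcl12 and Cxcl1) and in 3 to MMTV-CAF (Ptges, Nfkb1 and Icam1), which are 6.90% and 10.3% against 4.42% and 14.4% of all genes. Cell cycle genes leaned in 2 and 2 of 15, or 13.3% each. With at least 5 summits the inflammatory genes leaned in 10.5% and 15.8% of 19 cases and the cell cycle genes in 15.4% of 13 both ways, against 6.68% and 24.4%. Cdkn2a and Cdkn1a, which encode brakes of the cell cycle, leaned to MEF with 11 and 9 and 4 and 2 summits. In the SG lists Cdkn2a held 9 (MEF) and 10 (MMTV-CAF) and Cxcl1 3 and 7, the opposite of their WT order, and Icam1 3 in each. AP-1 and stress factors leaned in 1 of 16 cases to MEF (Mafk) and in 3 to MMTV-CAF (Fosl2, Fosb and Klf4). Mafk held 4 and Fosb 7 in each SG list. Tead and Yap genes leaned in 1 of 12 to MEF (Tead4, 9 and 6, but 6 and 7 in the SG lists) and in 2 to MMTV-CAF (Lats2 and Yap1), of which Yap1 lies in the stretch of chromosome 9 and held 6 summits in MMTV-CAF SG against 40 in MMTV-CAF WT. These are counts of 1 to 3 genes per list. Of the fibroblast markers Thy1 leaned to MEF (6 and 2) and Col1a2, Col3a1, Pdgfra and Vim to MMTV-CAF. The marker lists of other cells leaned to MMTV-CAF at Krt8, Pecam1, Csf1r, Cd68, Chrna1 and Notch3 and to MEF at none. Of the markers with a summit these were 1 of 9 epithelial, 1 of 6 endothelial, 2 of 7 leukocyte, 1 of 1 muscle and 1 of 4 pericyte markers. Of the neural crest and Schwann markers 0 of 3 leaned, and of all genes 14.4% leaned to MMTV-CAF. The SG lists did not keep the order at Chrna1 (3 in MEF SG and 2 in MMTV-CAF SG) and Notch3 (3 in each).

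The sequence around the summits was compared last. Distal type-only summits had a GC content of 48.1% in MEF and 48.5% in MMTV-CAF within 100 bp, close to the 49.7% and 48.9% of shared ones. Promoter summits differed more. Per 100 bases there were 5.31 CpG at MEF-only, 3.79 at MMTV-CAF-only and 7.36 and 7.24 at shared promoter summits, which is to say that type-only promoter summits lay less in CpG-rich sequence. The letters GGGCGG, bound by Klf and Sp factors, followed this order at promoter summits, where 24.4% of the MEF-only and 16.7% of the MMTV-CAF-only windows held them against 34.1% and 32.7% of the shared ones.

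The letters of 17 transcription factor motifs were sought on both strands, and 4 are described. AP-1 (TGANTCA) stood within 100 bp of 5.27% of the distal MEF-only (4.90 to 5.66) and 6.08% of the distal MMTV-CAF-only summits (5.78 to 6.40). The share at positions 2 kb to either side was 6.56% and 6.44%. Within 250 bp the shares were 21.6% and 20.9%, above the 15.9% and 15.6% of the flanks, and below the 24.2% and 23.3% of shared distal summits. The letters were thus placed beside the summits rather than under them. Counted by distance, which was chosen after the data were seen, they numbered 0.247 per kb in the first 50 bp of MEF-only and 0.296 of MMTV-CAF-only summits, and rose to 0.945 and 0.801 at 250 to 300 bp. Shared summits had 1.21 and 1.13 there.

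**Figure D5:**
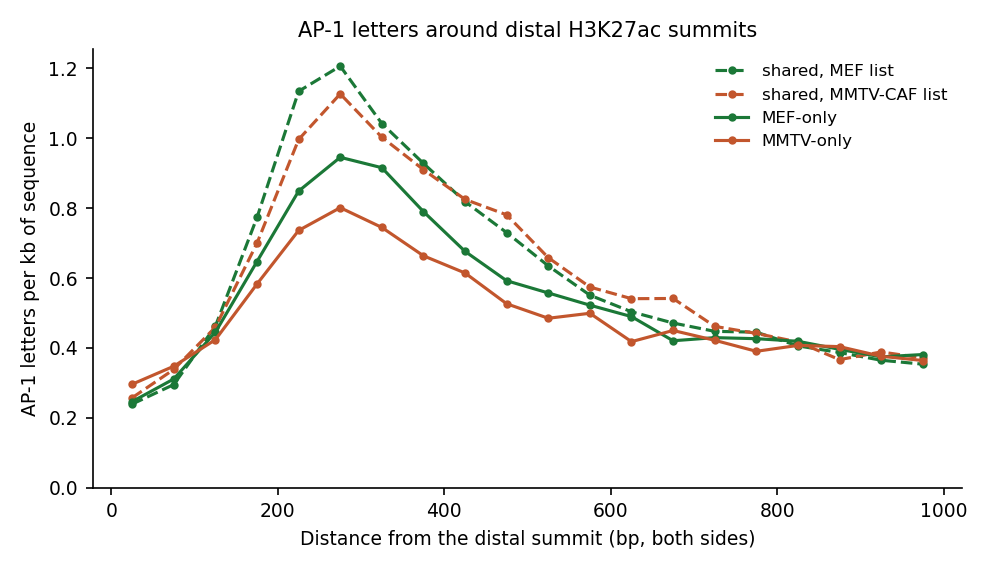
Number of AP-1 letters (TGANTCA, both strands) per kb of sequence in bins of 50 bp by distance from distal summits on either side, for MEF-only and MMTV-CAF-only (solid) and shared summits (dashed). Each line is lowest at the summit, between 0.240 and 0.296, and highest near 250 to 300 bp, at 0.945 for MEF-only and 0.801 for MMTV-CAF-only summits.

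TEAD (GGAATG), bound by the factors that Yap1 activates, stood within 250 bp of 30.1% of the distal MEF-only and 27.4% of the distal MMTV-CAF-only summits, against 25.9% and 25.1% in the flanks. The paired-type homeodomain letters TAATTA, the class to which Prrx1 belongs, were less frequent than in the flanks, with 10.9% against 14.7% in MEF-only and 9.95% against 12.3% in MMTV-CAF-only windows. The flanks have a lower GC content, 43.9% against 46.1% for MEF-only summits at this width, and the part of base composition was not tested. None of the 4 sets of letters set the distal type-only summits of one type apart from those of the other by more than 3 percentage points. A match is a description of the sequence, not of a bound factor.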

How the data were processed

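H3K27ac ChIP-seq of MEF WT and MMTV-CAF WT was compared, with 15 further peak lists as background. Per the methods and labels, the authors trimmed paired-end reads (Trimmomatic), aligned them to mm9 (Bowtie), removed duplicates and called peaks with MACS2 against input, 1 list per library, without pooling. The deposited lists of H3K27ac and Prrx1 hold summits with their −log10 p-value, and those of H3K4me3 hold broad regions with a fold enrichment ratio and −log10 p- and q-values, of which only the position, the width and the −log10 p were used. The files hold no read totals, so depth, and with it the precision of a summit, is unknown. Nothing was rescaled. Input files were not used here.

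Summits were matched within 500 bp and annotated with protein-coding genes of GENCODE M1 (NCBIM37), a promoter lying within 1 kb of a TSS and a gene reaching 10 kb beyond its ends. Sequences were read from the same assembly. Genes were named by rule: the 6 with the largest excess of type-only summits for each type, the 6 loci with the largest summed −log10 p, the 5 strongest type-only summits at promoters and at distal sites, and leaning members of 29 gene lists. Some genes that this rule named are not reported here. The members, lists and rules were chosen with earlier results of these data known. With 1 library per group no test was made. Shares carry Wilson 95% intervals. The scripts ran in Python 3.11.15 with matplotlib 3.10.9, pysam 0.24.0, scipy 1.17.1, pandas 2.3.3 and numpy 2.4.6. The matching was tested on simulated lists. Alternatives were other matching, promoter and gene distances, a −log10 p of at least 10, lists cut to equal size, held summits and all annotated TSS.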

Additional observations from a re-analysis of the deposited data

How the results depend on the processing

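No paired analysis was possible because each group has 1 library. Depth is unknown, and lists of different length set part of every share. The stretch of chromosome 9 and the backgrounds over genes with at least 5 or 10 summits were chosen after seeing the data, and leaving out the stretch moved none of the 10 shares recomputed by more than their intervals, and the counts of leaning genes to 638 and 2054. The causes were not tested.

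The MEF-only share of 36.7% became 46.4% with matching within 250 bp, 23.1% within 1 kb, 35.9% at a −log10 p of at least 10, 40.3% with lists of equal size and 13.2% for held summits. The MMTV-CAF-only share of 47.9% became 55.3%, 37.1%, 45.8%, 41.5% and 14.6% in the same order, so at equal size the types differed by little more than 1 percentage point. The promoter share of MEF-only summits, 18.4%, became 22.6% (250 bp), 9.68% (1 kb), 21.1% (−log10 p), 17.5% (equal size), 21.5% (held), 23.5% (TSS within 2 kb) and 21.1% (TSS of all annotated genes). That of MMTV-CAF-only summits, 10.2%, became 13.3%, 6.33%, 12.47% and 11.99% in the first 4 of these, and 17.95% and 13.9% in the last 2. For shared summits of MEF, 40.7%, it became 39.4% (1 kb), 47.1% (−log10 p), 42.7% (equal size), 43.6% (2 kb) and 43.7% (all genes). For those of MMTV-CAF it became 41.1% (250 bp), 37.2%, 46.5%, 42.3%, 42.9% and 43.04%.

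The 637 genes leaning to MEF became 876 with lists of equal size, 260 with held summits and 1177 with 50 kb on each side. The 2069 leaning to MMTV-CAF became 1212 with lists of equal size, 565 with held summits and 4162 with 50 kb. Of the leaning genes 637 and 1212 kept their call at equal size, 178 and 459 with held summits, and 383 and 1208 when each summit counted for its nearest TSS. Counting a summit as present in an SG list within 1 kb, 65.8% of MEF-only summits were in MEF SG and 50.5% in MMTV-CAF SG, and 61.7% of MMTV-CAF-only summits in MMTV-CAF SG and 34.8% in MEF SG. For summits over 5 kb from the other WT list these shares were 44.4%, 19.1%, 45.9% and 15.4%. For distal type-only summits the AP-1 share of MEF became 4.86% at a −log10 p of at least 10 and 21.6% within 250 bp, and that of MMTV-CAF 20.9% within 250 bp. The TEAD shares became 30.1% and 27.4%, and the TAATTA shares 10.9% and 9.95%, within 250 bp, the latter 3.12% at a −log10 p of at least 10 in MMTV-CAF. The AP-1 share was higher in MMTV-CAF within 100 bp and higher in MEF within 250 bp. The TAATTA share was 3.24% in MEF and 3.39% in MMTV-CAF within 100 bp, and higher in MEF within 250 bp and, at 3.51%, at a −log10 p of at least 10. Counts of leaning genes per list (MEF and MMTV-CAF) changed order in several lists. At a −log10 p of at least 10 they became 2 and 3 for HoxA (from 2 and 1), 2 and 3 for Meis and Pbx (3 and 2), 2 and 1 for contractile genes (0 and 2) and 3 and 1 for inflammatory genes (2 and 3). At equal size the inflammatory genes also gave 3 and 1, regional identity factors 7 and 6 (from 7 and 8) and mesenchymal factors 3 and 2 (3 and 4), and with held summits the last 2 lists gave 4 and 2, and 2 and 1. Matching within 250 bp turned the contractile genes, matching within 1 kb the regional identity and inflammatory genes, 50 kb the regional identity and Meis and Pbx genes, and the nearest TSS the regional identity genes.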

Other observations

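Windows of 1 Mb were searched for places like the stretch of chromosome 9, after the data were seen. In MEF WT the window from 86 to 87 Mb of chromosome 16 held 93 H3K27ac summits, while no other H3K27ac list held more than 41. The window from 37 to 38 Mb of chromosome 10 held 55 in MEF WT and at most 14 elsewhere. The window chr6:117000001-118000000, which holds Cxcl12, had 76 in MEF WT and at most 46 in the other lists. The window with Sorbs2, from 46 to 47 Mb of chromosome 8, held 44 and at most 19. In MMTV-CAF WT the window from 37 to 38 Mb of chromosome 6 held 88 H3K27ac summits against at most 36, together with 55 Prrx1 summits and 33 H3K4me3 regions.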
